A study of Bos taurus with 8 samples.

Results

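The genes described here encode snRNP proteins, splicing factors and the kinases that act on them. They were taken from the deposited gene table by symbol: every gene whose name starts with SNRP, SF3A, SF3B, SRSF, PRPF or HNRNP, together with U2AF1, U2AF2 and CLK1 to CLK4, leaving out HNRNPA2B1 and HNRNPC. The rule found 69 of the 16606 genes of the table, and all 69 had a mean of at least 1 CPM (reads per 1000000 reads) over the 8 libraries, the level from which genes were tested. The libraries were made from bovine embryos produced by fertilisation in vitro of oocytes from slaughterhouse ovaries with Holstein semen. The 4 groups were control embryos at the 4-cell stage, control embryos at the 8-cell stage, and at each stage embryos edited in RPL12, a gene of the large ribosomal subunit. Each group has 2 libraries of pooled embryos. The protocol gives 5 embryos per stage and group, without saying whether each library had its own 5. Edited embryos had been injected in the cytoplasm as zygotes with PEmax, a prime editor made of a Cas9 nickase and a reverse transcriptase, and a guide RNA. By the labels the edit is A148G. They call the samples base edited while the protocol speaks of prime editing, and give oocytes as the source of the 4-cell samples. Whether controls received an injection, and what share of alleles carried the edit, is not stated.

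Splicing removes introns from pre-mRNA in the spliceosome, which is built on each intron from small nuclear ribonucleoprotein particles (snRNPs). Each snRNP has an RNA, a ring of Sm proteins and proteins of its own, while SR proteins and hnRNP proteins bind the pre-mRNA and help to choose splice sites. CLK kinases phosphorylate SR proteins. An early embryo starts from RNA stored in the oocyte and takes over transcription from its own genome in steps, which in cattle reach their main phase around the 8-cell stage.

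Between 33527531 and 35122409 reads per library could be recovered from the deposited values, so that 3 reads equal 0.0858 to 0.0899 CPM. The least abundant of the 69 genes, SF3A2, had 9 to 91 reads per library. RPL12 had 159 and 174 CPM in controls and 27.5 and 33.6 CPM in edited embryos of 4 cells, followed by 96.3 and 97.6 CPM and 14.1 and 11.9 CPM in those of 8 cells. Transcripts that mark cumulus and granulosa cells, which surround the oocyte, differed between the groups too. The summed level of 26 such markers ran from 5355 to 8005 CPM in controls of 4 cells and from 1820.0 to 2530.1 CPM in edited embryos of 4 cells, then from 3723 to 3921 and from 639 to 1237 CPM in those of 8 cells. LUM alone gave 18.8% to 77.8% of this sum. Without LUM it ran from 2040.2 to 2477 CPM in controls and from 538 to 634 CPM in edited embryos of 4 cells, then from 869 to 1274 and from 489 to 519 CPM in those of 8 cells. Of the 23 that could be tested, 18 were lower and 1 higher in edited embryos at the 4-cell stage, and 9 were lower and 0 higher at the 8-cell stage. None of the 6 defining markers was at 0 in all libraries. HSD3B1 ran from 3.09 to 283 CPM, but FOXL2 had only 0 to 16 reads per library and CYP19A1 0.898 to 2.25 CPM. Not all markers went the same way. Mean levels of CYP19A1 (1.36 against 1.95 CPM), HAS2 (39.8 against 127.8) and PTGS2 (9.39 against 13.0) were lower in controls than in edited embryos of 4 cells. The sum of the oocyte and embryo markers, 13 of 16 in the table, went the other way. They summed to 18960.3 to 25003 CPM in controls and 48664 to 57177 CPM in edited embryos of 4 cells (6 of 13 called higher and 1 lower), and to 36605 to 49397 and 51195 to 54135 CPM in those of 8 cells (1 higher and 0 lower). BTG4 gave the largest part of this sum, with 12015 and 14925 CPM in controls and 28841 and 37563 CPM in edited embryos of 4 cells. Mean levels of ZP3 (134.8 against 103.1 CPM), ZP4 (1286 against 1141), H1-8 (759 against 489) and PADI6 (35.4 against 34.3) were higher in controls than in edited embryos of 4 cells. Those of the other oocyte and embryo markers were lower in controls. The part of these markers in the results was not tested.

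For 2 of the 69 genes the table does not hold a value of their own. The row of SF3A2 is identical in every library to that of AMH, and the row of HNRNPA0 to that of KLHL3, so their reads cannot be assigned to 1 gene of the pair. AMH is also 1 of the 26 cumulus and granulosa markers. The other 67 have rows that no other gene shares. Reads of Sm and hnRNP genes can also be split with processed pseudogenes, and those of SNRPN with SNRPB. By RefSeq, 12 of the 69 genes overlap another gene of the table, among them SNRPN with SNURF, and whether the counting used strand is not given in the sources used here.

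**Figure D1:**
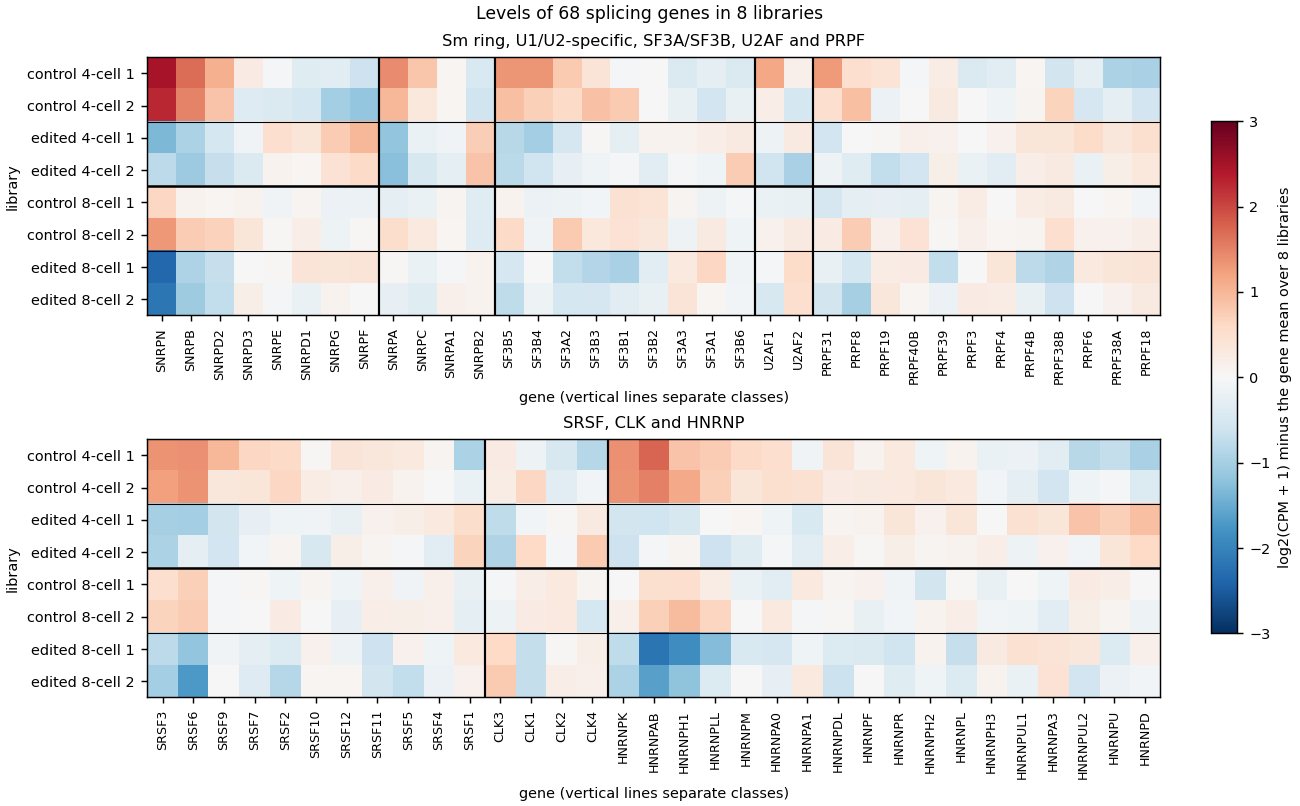
Levels of 68 of the 69 genes in each of the 8 libraries, as log2(CPM + 1) minus the mean of the gene over all libraries (colour scale), with genes grouped by class and, within a class, ordered by the difference between edited and control embryos at the 4-cell stage. SNRPN, SNRPB, SRSF3, SRSF6, HNRNPK and HNRNPAB are high in both 4-cell control libraries and low in all edited libraries, while SNRPF, SNRPB2, SRSF1 and HNRNPD are high in both 4-cell edited libraries.

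At the 4-cell stage the splicing genes differed between edited and control embryos in both directions. Of the 69, 13 (18.8%) were higher and 20 (29.0%) lower in edited embryos at an adjusted p-value under 0.05 by limma, on log2(CPM + 1) with adjustment over all 12129 genes tested. Over all genes tested, 18.9% were called higher and 25.8% lower, so these shares are near the background. The largest differences were lower SNRPN (11.1-fold), SNRPB (6.12-fold) and SNRPA (5.71-fold), and higher SNRPF (3.19-fold), HNRNPD (2.69-fold) and SNRPB2 (2.53-fold), each as the ratio of mean CPM. The median log2 fold change was -0.16 for the 69 genes and -0.02 for all genes tested. The edited and control libraries did not overlap for 22 genes that were higher and 32 that were lower, against 33.5% and 37.5% of all genes tested. In RNA from whole embryos, fewer cells of a type and less RNA per cell cannot be told apart. The labels do not say that the 2 libraries of a group come from separate cultures, so the p-values measure the spread between libraries, which may be technical.

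At the 8-cell stage nearly all calls were in 1 direction. Of the 69 genes 14 (20.3%) were called lower in edited embryos and 1 (1.45%) higher, where 14.5% and 1.08% of all genes tested were. The gene called higher was CLK3. The libraries did not overlap for 12 genes that were higher and 28 that were lower, against 27.7% and 32.7% of all genes tested. The comparisons at the 4-cell and the 8-cell stage share no library. Both used the same variance of each gene, estimated over all 8 libraries, so their calls are not independent. Called lower at both stages were 10 genes, which is 50.0% of the 20 at the 4-cell and 71.4% of the 14 at the 8-cell stage: SNRPB, SNRPD2, SNRPN, SF3B5, SRSF3, SRSF6, HNRNPAB, HNRNPH1, HNRNPK and HNRNPLL. Over all genes tested 1510 were lower at both stages, 48.2% of the 3131 and 85.6% of the 1764. None of the 13 genes called higher at the 4-cell stage was called at the 8-cell stage. Few of all genes tested were called higher there (1.08%), and 14.5% lower. The difference between the effects at the 2 stages was itself called for 6 of the 69 genes, 3 with a more positive and 3 with a more negative change at the 8-cell stage (1.95% and 2.0% of all genes tested). By edgeR it was called for 0 of the 69 (0.041% and 0.082% of all genes), with 22 at an unadjusted p-value under 0.05, and each of the 6 calls by limma was lost on leaving out any 1 edited library.

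Most of the tested marker transcripts of cumulus and granulosa cells were lower in edited embryos of 4 cells. With their mean level as a covariate, limma called 0 of the 69 genes at the 4-cell stage (6 at an unadjusted p-value under 0.05) and 0 at the 8-cell stage (2 at an unadjusted p-value under 0.05). In that fit 0 of all 12129 genes were called at either stage too. The difference between stages was called there for 3 of the 69, CLK3, SF3B4 and SNRPA. All 3 were more positive at the 8-cell stage (0.726% of all genes more positive and 0.783% more negative). The covariate, in SD units, was 1.14 and 1.30 in controls and -0.82 and -0.31 in edited embryos of 4 cells. In those of 8 cells it was 0.11 and 0.84, and -1.01 and -1.24. It thus shifted with editing in a similar way at both stages, so this fit could change the difference between stages little. The covariate was lower in each edited library than in both control libraries of its stage, so this fit cannot separate it from editing. The part of the covariate in the differences was not tested beyond this fit. Without it, the quasi-likelihood test of edgeR was run on recovered reads of 14629 genes, more than the 12129 tested by limma. It called 14 of the 69 higher and 15 lower at the 4-cell stage (16.9% and 18.4% of the 14629 genes). At the 8-cell stage edgeR called 1 higher and 9 lower (0.656% and 10.9%).

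**Figure D2:**
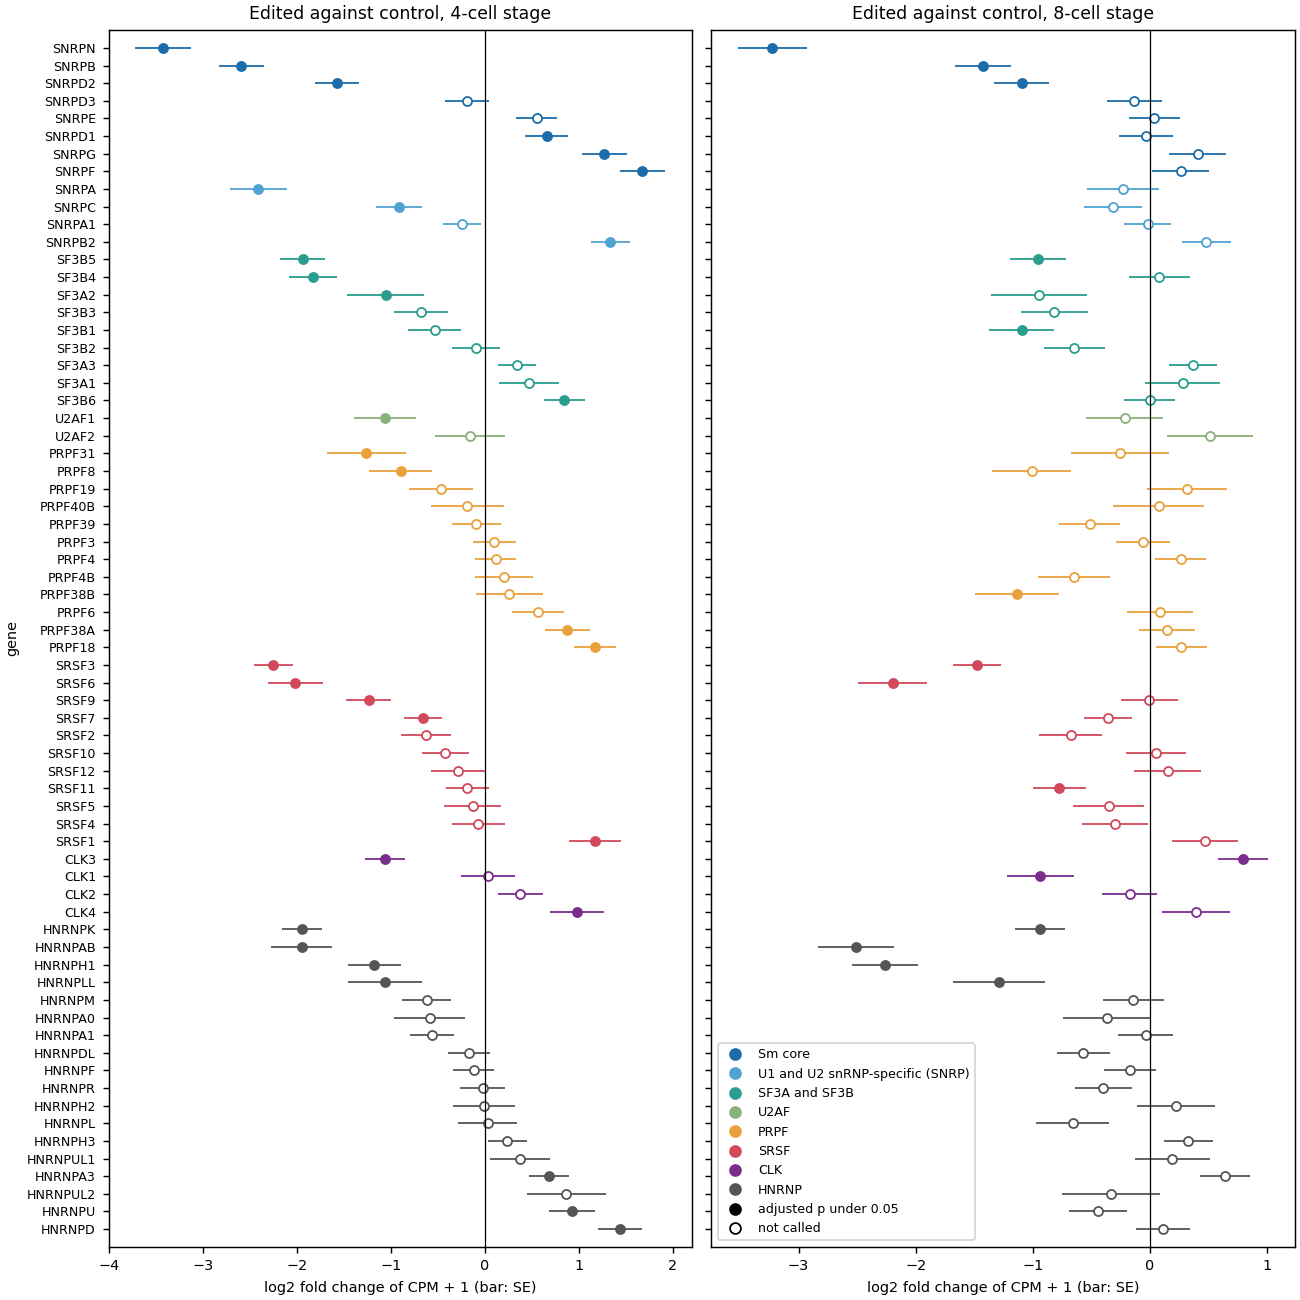
Log2 fold change (CPM + 1) between edited and control embryos at the 4-cell stage (left) and the 8-cell stage (right) for 68 of the 69 genes, with bars for the SE and 2 libraries per group, where filled points passed an adjusted p-value of 0.05 by limma. Points spread to both sides of 0 within nearly every class at the 4-cell stage, from -3.43 for SNRPN to 1.68 for SNRPF, and the filled points at the 8-cell stage lie to the left except that of CLK3.

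Of the 8 Sm genes 3 were called lower and 3 higher in edited embryos at the 4-cell stage (25.8% and 18.9% of all genes). At the 8-cell stage 3 were called lower and 0 higher (14.5% and 1.08% of all genes). Sm proteins bind the U1, U2, U4 and U5 snRNAs as a ring of SmB, SmD1, SmD2, SmD3, SmE, SmF and SmG, and SmN, encoded by SNRPN, can take the place of SmB. SNRPB was measured at 516 and 457 CPM (4-cell controls), 83.5 and 75.5 CPM (4-cell edited), 175 and 274 CPM (8-cell controls) and 84.9 and 76.6 CPM (8-cell edited). Both 4-cell control libraries were above all others, and all 4 edited libraries were below every control library (log2 fold change -2.60 with an SE of 0.239, adjusted p-value 1.23e-06 by limma at the 4-cell stage, and -1.43, SE 0.239, limma adjusted p-value 4.52e-04 at the 8-cell stage). SNRPD2 stood at 442 and 384 CPM in the 4-cell controls against 145 and 129.9 CPM after editing, and then at 220.4 and 342 CPM against 130.5 and 125 CPM in 8-cell embryos. For SNRPD2, too, the edited libraries were below all controls, with log2 fold changes of -1.58 (SE 0.234, limma adjusted p-value 6.99e-05) and -1.09 (SE 0.234, limma adjusted p-value 0.00346). The 8-cell call of SNRPD2 was lost without 8-cell control replicate 2 (limma adjusted p-value 0.0966).

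SNRPN, an imprinted gene best known from the brain, had the widest range of all 69 genes. SNRPN had 219.6 and 187 CPM in controls and 14.5 and 22.0 CPM in edited embryos of 4 cells, followed by 59.96 and 95.7 CPM and 6.72 and 7.76 CPM in those of 8 cells. Its level was 11.1-fold lower in edited embryos at the 4-cell stage (log2 fold change -3.43 with an SE of 0.296, adjusted p-value 1.04e-06 by limma) and 10.8-fold lower at the 8-cell stage (log2 fold change -3.22 with an SE of 0.296, adjusted p-value 4.05e-06 by limma). SNURF, which lies at the same locus, had 69.4 and 66.2 CPM in controls and 26.5 and 33.2 CPM in edited embryos of 4 cells, followed by 38.8 and 41.6 CPM and 9.53 and 10.6 CPM in those of 8 cells. It was also lower in edited embryos, with -1.16 on the log2 scale for embryos of 4 cells (limma adjusted p-value 0.00225), and the difference between the 2 genes was not tested.

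SNRPF, SNRPG and SNRPD1 moved the other way at the 4-cell stage. SNRPF was measured at 439 and 299 CPM (4-cell controls), 1351 and 1002 CPM (4-cell edited), 593 and 689 CPM (8-cell controls) and 881 and 667 CPM (8-cell edited). Both 4-cell edited libraries were above all 6 others, 3.19-fold above their controls (log2 fold change 1.68 with an SE of 0.244, adjusted p-value 5.84e-05 by limma), while the 8-cell groups overlapped (0.26, limma adjusted p-value 0.534). The effect on SNRPF differed between the stages by -1.42 (SE 0.345, limma adjusted p-value 0.0379). SNRPG stood at 385 and 241 CPM in the 4-cell controls against 827 and 655 CPM after editing, and then at 430.1 and 440.0 CPM against 631 and 526 CPM in 8-cell embryos. The 4-cell edited libraries were again the highest (log2 fold change 1.27 with an SE of 0.240, adjusted p-value 5.31e-04 by limma). SNRPD1 had 634 and 567 CPM in controls and 1047 and 855 CPM in edited embryos of 4 cells, followed by 869 and 934 CPM and 1076 and 717 CPM in those of 8 cells. SNRPD1 was called higher at the 4-cell stage (log2 fold change 0.66 with an SE of 0.228, adjusted p-value 0.0278 by limma), a call lost without 4-cell control replicate 2 or 4-cell edited replicate 1 (limma adjusted p-values up to 0.180). SNRPE and SNRPD3 were not called in any comparison, with 4-cell log2 fold changes of 0.55 and -0.19.

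Because scaling between libraries cancels in a ratio of 2 genes, the reads of SNRPF per read of SNRPB were counted within each library. There were 0.852 and 0.655 in the controls of 4 cells, 16.2 and 13.3 in edited embryos of 4 cells, 3.40 and 2.52 in the controls of 8 cells and 10.4 and 8.70 in edited embryos of 8 cells. This pair was picked after its values had been seen, and the ratio is given as a description. The ring as a whole took overlapping shares of the reads, at 0.389% and 0.302% of all reads in controls and 0.484% and 0.379% in edited embryos of 4 cells.

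**Figure D3:**
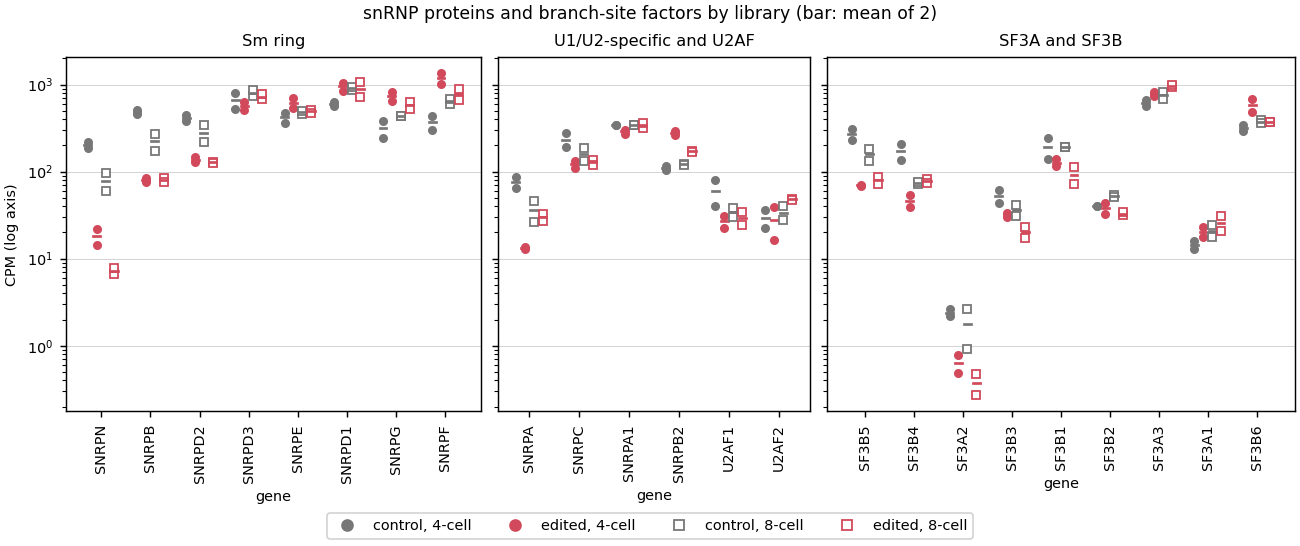
CPM per library (log axis) for the Sm ring, the U1- and U2-specific proteins with U2AF, and the SF3A and SF3B subunits, with 2 points per group and a short bar for their mean. At the 4-cell stage SNRPN, SNRPB, SNRPD2, SNRPA, SF3B5 and SF3B4 are lower, and SNRPF, SNRPG, SNRPB2 and SF3B6 higher, in edited (red) than in control embryos (grey), without overlap.

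Among the U1- and U2-specific genes whose names start with SNRP, SNRPA and SNRPC of U1 were called lower in edited embryos at the 4-cell stage. SNRPB2 of U2 was called higher. SNRPA encodes the A protein of U1, which binds a stem loop of its snRNA. SNRPA was measured at 86.8 and 64.7 CPM (4-cell controls), 13.7 and 12.8 CPM (4-cell edited), 26.4 and 46.5 CPM (8-cell controls) and 33.0 and 26.7 CPM (8-cell edited). Both 4-cell edited libraries were below all 6 others (log2 fold change -2.41 with an SE of 0.306, adjusted p-value 1.73e-05 by limma), and the 8-cell groups overlapped (-0.23, limma adjusted p-value 0.673). The effect on SNRPA differed between stages by 2.18 (SE 0.433, limma adjusted p-value 0.0222). SNRPC, which encodes the C protein that helps U1 to hold the 5′ splice site, stood at 274 and 191 CPM in the controls and 133 and 110.0 CPM in edited embryos of 4 cells (log2 fold change -0.91 with an SE of 0.248, adjusted p-value 0.00708 by limma). The call was lost without 4-cell control replicate 1 or 4-cell edited replicate 2 (limma adjusted p-values up to 0.0713).

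SNRPB2 and SNRPA1 encode partner proteins that bind U2 snRNA together. SNRPB2 stood at 115 and 104 CPM in the 4-cell controls against 265 and 289.6 CPM after editing, and then at 123 and 119.9 CPM against 171 and 169.9 CPM in 8-cell embryos. SNRPB2 was thus highest in both 4-cell edited libraries (log2 fold change 1.33 with an SE of 0.208, adjusted p-value 1.04e-04 by limma), and the edited libraries were also above controls at the 8-cell stage, where the test did not pass (0.48, limma adjusted p-value 0.145). SNRPA1 had 344 and 340.2 CPM in controls and 305 and 273 CPM in edited embryos of 4 cells, followed by 347 and 345 CPM and 321 and 363 CPM in those of 8 cells. SNRPA1 had the narrowest range of the 69 genes and was called in no comparison.

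SF3A and SF3B are the protein complexes with which U2 holds the branch site of the intron. Of the 9 genes named SF3A or SF3B 3 were called lower and 1 higher at the 4-cell stage (25.8% and 18.9% of all genes). At the 8-cell stage 2 were called lower and 0 higher (14.5% and 1.08% of all genes). SF3B5 was measured at 312 and 233 CPM (4-cell controls), 68.98 and 69.8 CPM (4-cell edited), 132 and 184 CPM (8-cell controls) and 87.6 and 72.9 CPM (8-cell edited). All edited libraries were below every control library (log2 fold change -1.94 with an SE of 0.242, adjusted p-value 1.42e-05 by limma at the 4-cell stage, -0.96 with a limma adjusted p-value of 0.0111 at the 8-cell stage). The 8-cell call of SF3B5 was lost without 8-cell control replicate 2 or 8-cell edited replicate 2 (limma adjusted p-values up to 0.178). SF3B4 stood at 205 and 135 CPM in the 4-cell controls against 39.7 and 53.2 CPM after editing, and then at 71.8 and 75.1 CPM against 81.9 and 73.7 CPM in 8-cell embryos. SF3B4 was lowest in the 4-cell edited libraries (log2 fold change -1.84 with an SE of 0.256, adjusted p-value 4.07e-05 by limma) while the 8-cell groups overlapped, and the effects differed by 1.92 (SE 0.362, limma adjusted p-value 0.0206).

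SF3B6, a further subunit of SF3B, stood at 293 and 341 CPM in the controls and 480.2 and 674 CPM in edited embryos of 4 cells (log2 fold change 0.85 with an SE of 0.217, adjusted p-value 0.00492 by limma). This call was lost without 4-cell edited replicate 2 (limma adjusted p-value 0.0644), and the 4 libraries from embryos of 8 cells lay between 364 and 387 CPM. SF3B1, the SF3B subunit that clamps the branch site, stood at 139 and 244 CPM in control and 116 and 138 CPM in edited 4-cell libraries, with the higher edited library next to the lower control library, and was not called there. At the 8-cell stage SF3B1 stood at 193 and 192 CPM in controls and 71.7 and 112 CPM in edited libraries (log2 fold change -1.10 with an SE of 0.279, adjusted p-value 0.0116 by limma). The call was lost with edgeR (adjusted p-value 0.0627) and without 8-cell control replicate 2 or 8-cell edited replicate 1 (limma adjusted p-values up to 0.194). SF3A3 had 565 and 658 CPM in controls and 818 and 732 CPM in edited embryos of 4 cells, followed by 812 and 691 CPM and 935 and 992 CPM in those of 8 cells. SF3A3 was not called in any comparison, nor were SF3A1, SF3B2 and SF3B3. SF3A2, whose row is that of AMH, was called lower at the 4-cell stage (2.64 and 2.17 against 0.492 and 0.790 CPM, limma adjusted p-value 0.0468), and edgeR and DESeq2 did not call it.

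U2AF is the pair of proteins that marks the 3′ splice site for U2, U2AF2 on the polypyrimidine tract and U2AF1 on the AG. U2AF1 was measured at 79.3 and 40.2 CPM (4-cell controls), 31.3 and 22.5 CPM (4-cell edited), 30.0 and 37.8 CPM (8-cell controls) and 34.0 and 24.4 CPM (8-cell edited). The 4-cell groups of U2AF1 did not overlap (log2 fold change -1.06 with an SE of 0.331, adjusted p-value 0.0156 by limma), but the 2 control libraries lay far apart. The call was lost without 4-cell control replicate 1 or 4-cell edited replicate 2 (limma adjusted p-values up to 0.226), and over the alternatives the log2 fold change ran from -1.54 to -0.58. U2AF2 stood at 36.5 and 22.3 CPM in the 4-cell controls against 39.6 and 16.3 CPM after editing, and then at 27.9 and 39.9 CPM against 48.9 and 47.1 CPM in 8-cell embryos. U2AF2 was called in no comparison, and its 4-cell libraries overlapped.

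Of the 13 PRPF genes, 3 were called higher and 2 lower in edited embryos at the 4-cell stage (18.9% and 25.8% of all genes). PRPF18, which acts in the second step of splicing, was one of those higher. PRPF18 had 129.8 and 171 CPM in controls and 358 and 317 CPM in edited embryos of 4 cells, followed by 243 and 292 CPM and 336 and 307 CPM in those of 8 cells. Both 4-cell control libraries were the lowest of the 8 (log2 fold change 1.17 with an SE of 0.219, adjusted p-value 4.74e-04 by limma). PRPF38A, needed to activate the assembled spliceosome, stood at 98.7 and 156 CPM in the controls and 242 and 216 CPM in edited embryos of 4 cells (log2 fold change 0.88 with an SE of 0.239, adjusted p-value 0.00716 by limma). The call of PRPF38A was lost without 4-cell control replicate 1 or 4-cell edited replicate 1 (limma adjusted p-values up to 0.0861).

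PRPF8 forms the scaffold of the catalytic centre in U5. PRPF8 was measured at 50.3 and 66.5 CPM (4-cell controls), 34.7 and 27.0 CPM (4-cell edited), 29.2 and 60.3 CPM (8-cell controls) and 24.2 and 17.1 CPM (8-cell edited). The edited libraries were below the controls of their stage, and the call at the 4-cell stage (log2 fold change -0.90 with an SE of 0.335, adjusted p-value 0.0384 by limma) was lost with edgeR (adjusted p-value 0.0747) and without 4-cell control replicate 2, 4-cell edited replicate 1 or 4-cell edited replicate 2 (limma adjusted p-values up to 0.198). At the 8-cell stage PRPF8 was not called (-1.01, limma adjusted p-value 0.0516). PRPF31, a protein of U4, stood at 11.1 and 6.01 CPM in control and 2.31 and 3.45 CPM in edited 4-cell libraries (log2 fold change -1.26 with an SE of 0.418, adjusted p-value 0.0220 by limma), a call lost with edgeR (adjusted p-value 0.0509) and without 4-cell control replicate 1 or 4-cell edited replicate 1 (limma adjusted p-values up to 0.231). The other U4/U6 and tri-snRNP proteins PRPF3, PRPF4 and PRPF6 were called in no comparison, nor were PRPF4B, PRPF19, PRPF39 and PRPF40B. PRPF38B was the only PRPF gene called at the 8-cell stage, at 25.3 and 29.9 CPM in control and 10.8 and 13.3 CPM in edited libraries (log2 fold change -1.13 with an SE of 0.358, adjusted p-value 0.0409 by limma), and that call was lost without any 1 of the 4 libraries (limma adjusted p-values up to 0.219).

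SR proteins carry a domain rich in arginine and serine and promote the use of the exons they bind. Their 11 genes took 0.178% and 0.159% of all reads in controls of 4 cells and 0.0823% and 0.0863% in edited embryos of 4 cells, then 0.115% and 0.120% and 0.0804% and 0.0731% in those of 8 cells. All 4 edited libraries were thus below all control libraries. At the 4-cell stage 4 of the 11 were called lower and 1 higher (25.8% and 18.9% of all genes). At the 8-cell stage 3 were called lower and 0 higher (14.5% and 1.08% of all genes). SRSF3 stood at 621 and 577 CPM in the 4-cell controls against 123 and 126 CPM after editing, and then at 345 and 388 CPM against 142 and 120.2 CPM in 8-cell embryos. SRSF3, the smallest SR protein, was 4.81-fold lower in edited embryos at the 4-cell stage (log2 fold change -2.26 with an SE of 0.206, adjusted p-value 1.22e-06 by limma) and 2.79-fold lower at the 8-cell stage (log2 fold change -1.48 with an SE of 0.206, adjusted p-value 9.83e-05 by limma). It gave 34.5 and 36.2% of the SRSF reads in controls and 15.0 and 14.7% in edited embryos of 4 cells.

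SRSF6 was lower in edited embryos at both stages. SRSF6 had 109 and 106 CPM in controls and 19.7 and 33.6 CPM in edited embryos of 4 cells, followed by 68.4 and 70.6 CPM and 17.5 and 11.7 CPM in those of 8 cells. Each edited library was below every control library, with log2 fold changes of -2.02 (SE 0.294, limma adjusted p-value 5.94e-05) and -2.20 (SE 0.294, limma adjusted p-value 6.87e-05). The difference between these effects was -0.18 (SE 0.416, limma adjusted p-value 0.840). SRSF9 stood at 224 and 142 CPM in the controls and 75.5 and 74.3 CPM in edited embryos of 4 cells (log2 fold change -1.24 with an SE of 0.242, adjusted p-value 6.75e-04 by limma), and between 104 and 110.0 CPM in the 4 libraries of the 8-cell stage. SRSF7 was measured at 525 and 441 CPM (4-cell controls), 287 and 324 CPM (4-cell edited), 351 and 342 CPM (8-cell controls) and 279.6 and 260.5 CPM (8-cell edited). SRSF7 was called lower at the 4-cell stage (log2 fold change -0.66, limma adjusted p-value 0.0154), a call lost with TMM scaling (adjusted p-value 0.0660), with edgeR (adjusted p-value 0.0901) and without 4-cell control replicate 1 or 4-cell edited replicate 1 (limma adjusted p-values up to 0.0865).

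SRSF1, the founding SR protein, was the one called higher. SRSF1 stood at 22.4 and 38.7 CPM in the 4-cell controls against 64.6 and 71.1 CPM after editing, and then at 37.6 and 36.5 CPM against 54.5 and 48.8 CPM in 8-cell embryos. The 4-cell edited libraries of SRSF1 were the highest and did not overlap with controls (log2 fold change 1.18 with an SE of 0.279, adjusted p-value 0.00287 by limma). At the 8-cell stage the edited libraries were also above controls, but the test did not pass (0.47, limma adjusted p-value 0.308). The reads of SRSF1 per read of SRSF3 were 0.0360 and 0.0670 in the controls of 4 cells, 0.526 and 0.563 in edited embryos of 4 cells, 0.109 and 0.0939 in the controls of 8 cells and 0.382 and 0.406 in edited embryos of 8 cells, a pair picked after its values had been seen. SRSF11 was called lower in edited embryos at the 8-cell stage (74.2 and 77.1 against 42.8 and 44.9 CPM, log2 fold change -0.77 with an SE of 0.227, adjusted p-value 0.0274 by limma), and the call was lost with edgeR (adjusted p-value 0.0589) and without any 1 of the 4 libraries (limma adjusted p-values up to 0.185). SRSF2, SRSF4, SRSF5, SRSF10 and SRSF12 were called in no comparison.

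CLK kinases phosphorylate SR proteins in the nucleus. Of the 4 genes 1 was called higher and 1 lower in edited embryos at the 4-cell stage (18.9% and 25.8% of all genes). At the 8-cell stage 1 was called higher and 1 lower (1.08% and 14.5% of all genes). CLK3 had 147 and 145 CPM in controls and 72.9 and 66.6 CPM in edited embryos of 4 cells, followed by 123 and 111 CPM and 190.2 and 217 CPM in those of 8 cells. The 4-cell edited libraries of CLK3 were the lowest of the 8 and the 8-cell edited libraries the highest. CLK3 was thus called lower in edited embryos at the 4-cell stage (log2 fold change -1.06 with an SE of 0.214, adjusted p-value 8.83e-04 by limma) and higher at the 8-cell stage (log2 fold change 0.79 with an SE of 0.214, adjusted p-value 0.0171 by limma). The difference between these effects was 1.85 (SE 0.303, limma adjusted p-value 0.0117), but edgeR's adjusted p-value for it was 0.0628. The 8-cell call was lost without any 1 of the 4 libraries (limma adjusted p-values up to 0.188).

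CLK1 was measured at 68.0 and 117 CPM (4-cell controls), 72.1 and 115 CPM (4-cell edited), 87.2 and 90.5 CPM (8-cell controls) and 46.3 and 45.7 CPM (8-cell edited). CLK1 overlapped between the 4-cell groups and was lower in both 8-cell edited libraries than in all others (log2 fold change -0.94 with an SE of 0.287, adjusted p-value 0.0349 by limma). Under edgeR (adjusted p-value 0.107), DESeq2 (adjusted p-value 0.0502) and both other scalings this call was lost, and also without any 1 of the 4 libraries (limma adjusted p-values up to 0.153). CLK4 stood at 64.3 and 110.0 CPM in the 4-cell controls against 139.6 and 201 CPM after editing, and then at 123 and 80.6 CPM against 132 and 130.02 CPM in 8-cell embryos. CLK4 was called higher in edited embryos at the 4-cell stage (log2 fold change 0.98 with an SE of 0.288, adjusted p-value 0.0111 by limma), where the 2 libraries of each group lay far apart, and the call was lost without 4-cell control replicate 1 or 4-cell edited replicate 2 (limma adjusted p-values up to 0.130). CLK2 had 40.1 and 44.7 CPM in controls and 57.1 and 53.6 CPM in edited embryos of 4 cells, followed by 68.9 and 69.1 CPM and 57.4 and 65.0 CPM in those of 8 cells. CLK2 was called in no comparison. Of the reads of the 4 kinases, CLK3 gave, in percent, 46.1 and 34.8 in the controls of 4 cells, 21.3 and 15.3 in edited embryos of 4 cells, 30.5 and 31.7 in the controls of 8 cells and 44.7 and 47.4 in edited embryos of 8 cells, while the summed reads of the 4 stayed between 0.0318% and 0.0455% of the library.

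**Figure D4:**
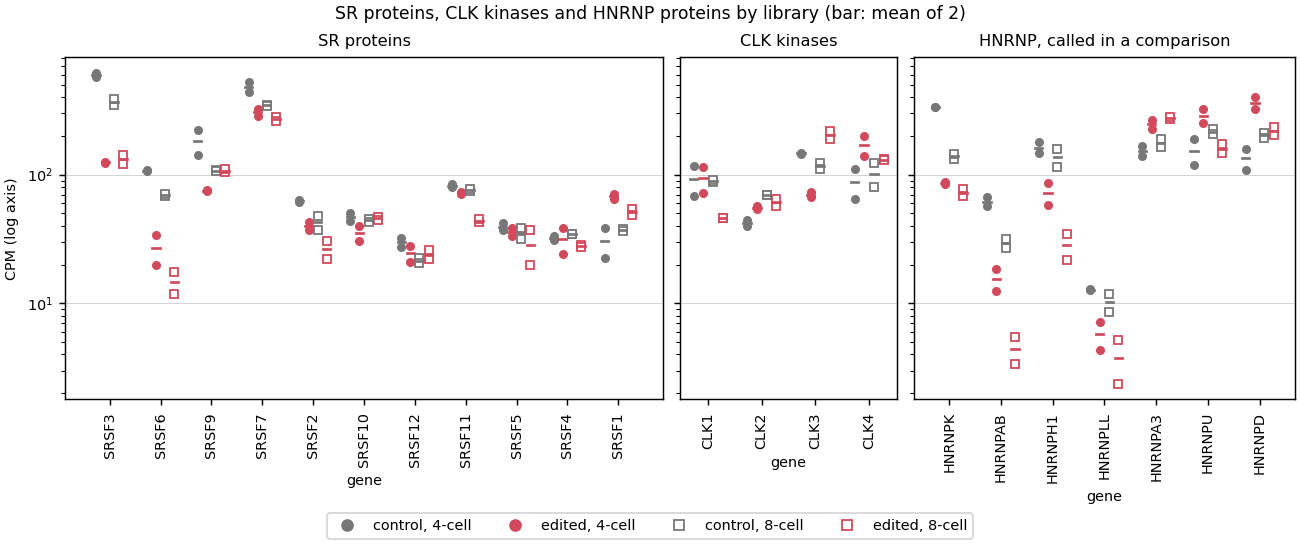
CPM per library (log axis) for the 11 SR proteins, the 4 CLK kinases and the 7 HNRNP genes called in at least 1 comparison, with 2 points per group and a short bar for their mean. SRSF3 and SRSF6 are lower in edited (red) than in control embryos (grey) at both stages, SRSF1 is higher at the 4-cell stage, and CLK3 is lower at the 4-cell and higher at the 8-cell stage.

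hnRNP proteins coat nascent pre-mRNA, and many of them repress exons or act on mRNA stability. Of the 18 HNRNP genes 4 were called lower and 3 higher in edited embryos at the 4-cell stage (25.8% and 18.9% of all genes). At the 8-cell stage 4 were called lower and 0 higher (14.5% and 1.08% of all genes). The 4 lower genes were the same at both stages. HNRNPK was measured at 338 and 335 CPM (4-cell controls), 88.3 and 84.1 CPM (4-cell edited), 132 and 146 CPM (8-cell controls) and 76.8 and 67.7 CPM (8-cell edited). HNRNPK, which binds runs of C, was high in both 4-cell control libraries and lowest in the edited ones (log2 fold change -1.95 with an SE of 0.212, adjusted p-value 4.50e-06 by limma at the 4-cell stage). At the 8-cell stage its log2 fold change was -0.94 (SE 0.212, limma adjusted p-value 0.00522), and the call was lost without 8-cell control replicate 2 or 8-cell edited replicate 2 (limma adjusted p-values up to 0.0840).

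HNRNPAB stood at 66.6 and 56.6 CPM in the 4-cell controls against 12.4 and 18.5 CPM after editing, and then at 27.1 and 31.8 CPM against 3.38 and 5.51 CPM in 8-cell embryos. Every edited library was below every control library, with log2 fold changes of -1.95 (SE 0.323, limma adjusted p-value 1.76e-04) and -2.51 (SE 0.323, limma adjusted p-value 5.12e-05). HNRNPH1, which binds runs of G, was lower in edited embryos at both stages. HNRNPH1 had 147 and 178 CPM in controls and 58.1 and 86.3 CPM in edited embryos of 4 cells, followed by 115 and 158 CPM and 21.7 and 34.6 CPM in those of 8 cells. Its log2 fold changes were -1.18 (SE 0.283, limma adjusted p-value 0.00311) and -2.26 (SE 0.283, limma adjusted p-value 3.97e-05), whose difference did not pass (limma adjusted p-value 0.122). The 4-cell call was lost without 4-cell edited replicate 1 (limma adjusted p-value 0.0577). Its paralogues HNRNPH2, HNRNPH3 and HNRNPF were called in no comparison. There were 0.737 and 0.825 reads of HNRNPH1 per read of HNRNPH3 in controls of 4 cells and 0.0794 and 0.142 in edited embryos of 8 cells, again a pair picked after its values had been seen. HNRNPLL was lower in edited embryos at both stages (13.0 and 12.6 against 7.14 and 4.33 CPM and 8.61 and 11.9 against 2.36 and 5.15 CPM, limma adjusted p-values 0.0382 and 0.0352), with edgeR calling it at neither. The 4-cell call of HNRNPLL was lost without 4-cell control replicate 1, 4-cell control replicate 2 or 4-cell edited replicate 2 (limma adjusted p-values up to 0.210), and the 8-cell call without 8-cell control replicate 2 or 8-cell edited replicate 1 (limma adjusted p-values up to 0.350).

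HNRNPD, HNRNPU and HNRNPA3 were called higher in edited embryos at the 4-cell stage. HNRNPD was measured at 109 and 159 CPM (4-cell controls), 399 and 323 CPM (4-cell edited), 211 and 193 CPM (8-cell controls) and 236 and 202 CPM (8-cell edited). For HNRNPD, known as AUF1 for its binding to AU-rich elements, both 4-cell edited libraries were above all 6 others (log2 fold change 1.44 with an SE of 0.233, adjusted p-value 1.46e-04 by limma), while the 8-cell groups overlapped. The effects differed by -1.33 (SE 0.330, limma adjusted p-value 0.0392). HNRNPU stood at 118 and 189.7 CPM in the 4-cell controls against 323 and 252 CPM after editing, and then at 226 and 207 CPM against 146 and 172 CPM in 8-cell embryos. HNRNPU, which also binds chromatin, was higher in edited embryos at the 4-cell stage (log2 fold change 0.93 with an SE of 0.248, adjusted p-value 0.00634 by limma) and its 8-cell edited libraries were below the 8-cell controls without passing the test (-0.44, limma adjusted p-value 0.271). The difference was -1.37 (SE 0.350, limma adjusted p-value 0.0412), and the 4-cell call was lost without 4-cell control replicate 1 or 4-cell edited replicate 1 (limma adjusted p-values up to 0.0786). HNRNPA3 stood at 166 and 139.5 CPM in control and 265 and 227 CPM in edited 4-cell libraries and at 190.4 and 164 and 272 and 280.0 CPM at the 8-cell stage. Its edited libraries were above the controls of both stages, and the test passed at the 4-cell stage (log2 fold change 0.68 with an SE of 0.213, adjusted p-value 0.0154 by limma) but not at the 8-cell stage (0.64, limma adjusted p-value 0.0524). The 4-cell call was lost without 4-cell control replicate 2 or 4-cell edited replicate 1 (limma adjusted p-values up to 0.0953). HNRNPA1 had 360.2 and 524 CPM in controls and 280.1 and 308 CPM in edited embryos of 4 cells, followed by 471 and 373 CPM and 353 and 473 CPM in those of 8 cells. HNRNPA1 was called in no comparison, nor were HNRNPDL, HNRNPL, HNRNPM, HNRNPR, HNRNPUL1, HNRNPUL2 and HNRNPA0, whose row is that of KLHL3.

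The 2 stages were then set against each other, first among controls. There 2 of the 69 genes were higher and 6 lower in embryos of 8 cells than in those of 4 (2.75% and 6.27% of all genes tested). The genes lower were HNRNPK (-1.27), SNRPN (-1.41), SF3B4 (-1.17), SNRPB (-1.15), SNRPA (-1.07) and SRSF3 (-0.71), with limma adjusted p-values from 0.00830 to 0.0440 and log2 fold changes in brackets. PRPF18 (0.84, SE 0.219, limma adjusted p-value 0.0317) and SNRPF (0.82, SE 0.244, limma adjusted p-value 0.0481) were higher. The call of SNRPF was lost with edgeR (adjusted p-value 0.103), DESeq2 (adjusted p-value 0.0514) and both TMM and median-ratio scaling. That of PRPF18 was lost with edgeR (adjusted p-value 0.0760). Over the alternatives the log2 fold change ran from 0.54 to 1.09 for SNRPF and from 0.64 to 1.03 for PRPF18. The 4-cell control libraries also enter the 4-cell comparison of edited with control embryos. Between the stages in controls 4 of 23 cumulus and granulosa markers were lower and 1 higher at the 8-cell stage, and their part was not tested. Calling 0.171% of all genes higher and 0.417% lower, edgeR called 1 of the 69, HNRNPK (lower, adjusted p-value 0.0470), and limma called none without 4-cell control replicate 1 (15 at an unadjusted p-value under 0.05) or without 8-cell control replicate 1 (12). Without 4-cell control replicate 2 it called 4 higher and 10 lower, and without 8-cell control replicate 2 it called 0 and 7. With TMM scaling 1 was called higher and 5 lower, and with median-ratio scaling 1 and 7.

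In edited embryos 2 of the 69 genes rose and 3 fell from the 4-cell to the 8-cell stage (1.45% and 3.73% of all genes tested). CLK3 rose 2.92-fold (log2 fold change 1.53 with an SE of 0.214, adjusted p-value 0.00188 by limma) and SNRPA 2.25-fold (log2 fold change 1.11 with an SE of 0.306, adjusted p-value 0.0482 by limma). HNRNPAB was 3.47-fold lower at the 8-cell stage (log2 fold change -1.595 with an SE of 0.323, adjusted p-value 0.0122 by limma), HNRNPH1 2.57-fold (log2 fold change -1.34 with an SE of 0.283, adjusted p-value 0.0151 by limma) and SNRPN 2.52-fold (log2 fold change -1.20 with an SE of 0.296, adjusted p-value 0.0314 by limma). The 2 stage comparisons share no library, but both used the same variance of each gene, estimated over all 8 libraries. SNRPN was called lower at the 8-cell stage in both conditions, and SNRPA was called lower in controls and higher in edited embryos. Neither call of SNRPA passed with edgeR (adjusted p-values 0.0916 in controls and 0.0721 in edited embryos). The call of SNRPA in edited embryos was also lost with the replicate number as a block. Over the alternatives its log2 fold change ran from -1.47 to -0.68 in controls and from 0.93 to 1.25 in edited embryos. Of the cumulus and granulosa markers 4 of 23 fell and 0 rose between the stages in edited embryos, and their part was not tested. Without 4-cell edited replicate 2 limma called none of the 69 (16 at an unadjusted p-value under 0.05), and leaving out any other edited library left 1 higher and 0 to 3 lower. DESeq2 called 2 higher and 10 lower (2.25% and 6.93% of all genes). With TMM and with median-ratio scaling 1 was called higher and 3 lower, and SNRPA was the one lost.

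**Figure D5:**
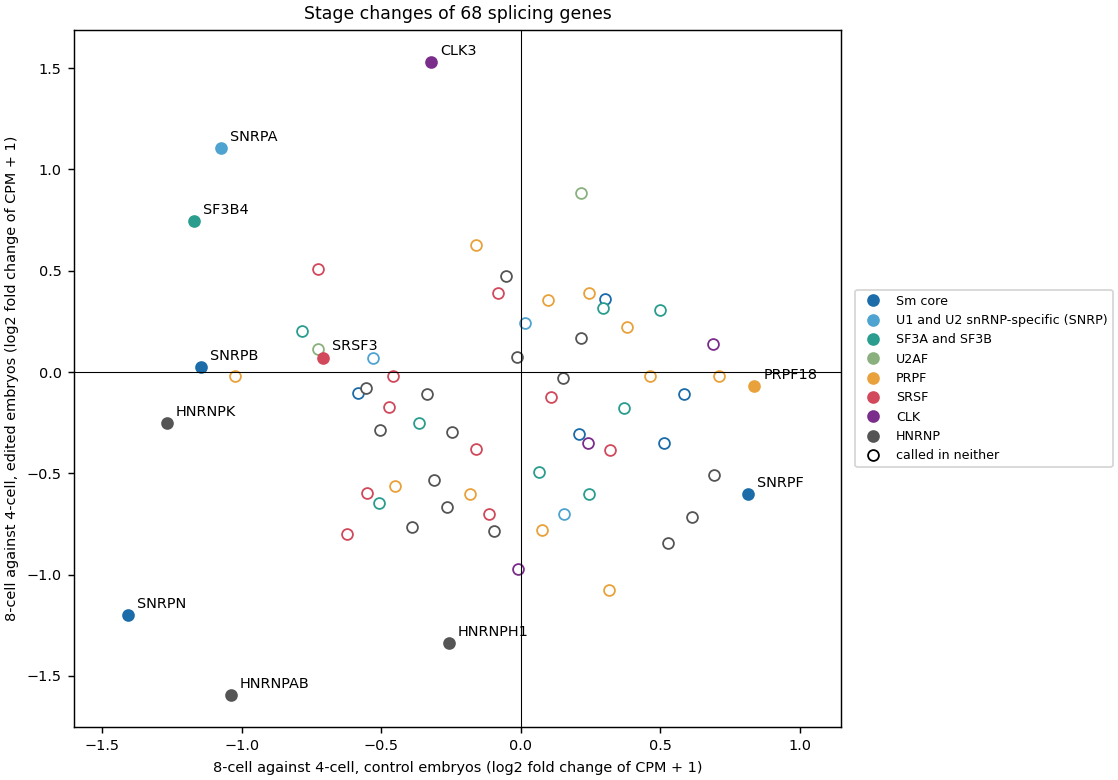
Log2 fold change (CPM + 1) from the 4-cell to the 8-cell stage in control embryos (horizontal axis) and in edited embryos (vertical axis), 1 point for each of 68 genes, filled and named where called by limma in at least 1 condition. CLK3 and SNRPA lie at the top left and SNRPN and HNRNPAB at the bottom left, while SNRPB, SRSF3 and HNRNPK were lower at the 8-cell stage in controls and changed by 0.02, 0.07 and -0.25 in edited embryos.

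Other genes of the splicing pathway were taken from a list of 163 that meets none of the naming rules above, with 149 tested. At the 4-cell stage 31 of these were called higher and 32 lower in edited embryos, which is 20.8% and 21.5% against 18.9% and 25.8% of all genes. The median of their log2 fold changes was -0.10. In embryos of 8 cells 13 were lower and 0 higher (limma, 30 at an unadjusted p-value under 0.05 in either direction), which is 8.72% lower against 14.5% of all genes. TRA2B, an SR-like splicing activator, stood at 196 and 183 CPM in the controls and 27.7 and 41.9 CPM in edited embryos of 4 cells, and at 89.6 and 111 and 27.6 and 42.4 CPM at the 8-cell stage (limma adjusted p-values 6.01e-06 and 9.21e-04). PHF5A, a subunit of SF3B that the naming rule does not take in, was also lower at both stages, at 177 and 131 against 25.5 and 41.8 CPM and 56.2 and 85.3 against 13.6 and 15.2 CPM (limma adjusted p-values 3.39e-05 and 8.12e-05). ESRP1, an epithelial splicing regulator, was higher at the 4-cell stage, at 50.2 and 77.5 CPM in control and 255 and 236 CPM in edited libraries (log2 fold change 1.96 with an SE of 0.242, adjusted p-value 1.36e-05 by limma). MAGOH, of the exon junction complex that splicing leaves on mRNA, stood at 739 and 882 against 1847 and 1808 CPM (log2 fold change 1.18 with an SE of 0.210, adjusted p-value 3.31e-04 by limma). At the 4-cell stage DYRK1A (1.69) was also among the 3 higher genes with the smallest p-values, and PPIL1 (-2.81) and ALYREF (-2.36) among the 3 lower ones, as were PPIL1 (-2.07) and TIA1 (-2.33) at the 8-cell stage, with log2 fold changes in brackets. In the stage comparisons 5 rose and 6 fell towards the 8-cell stage in controls, and 3 and 7 in edited embryos. These are 3.36% and 4.03% in controls (2.75% and 6.27% of all genes) and 2.01% and 4.70% in edited embryos (1.45% and 3.73%). In controls the 3 with the smallest p-values were MAGOH (0.88), CWC25 (0.87) and ESRP1 (0.89) among those higher and ALYREF (-1.49), GEMIN7 (-0.99) and PPIL1 (-1.26) among those lower. In edited embryos they were EIF4A3 (0.81), SNRNP40 (0.73) and DDX39B (0.94) among those higher and LSM5 (-1.92), ZCRB1 (-1.31) and MATR3 (-0.94) among those lower. The effect of editing differed between stages for 7 (2.68% more positive and 2.01% more negative, against 1.95% and 2.0% of all genes), among them DDX39A (1.56), EIF4A3 (1.14) and DDX39B (1.43), which were more positive at the 8-cell stage, and ESRP1 (-1.63), PPIG (-1.20) and DYRK1A (-1.43), which were more negative. The reads of 5 of the 149 are in rows shared with another gene.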

How the data were processed

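Gene-level CPM values (reads per 1000000) were deposited by the authors in 1 table of 16606 genes. Trim Galore 0.6.7, HISAT2 2.2.1 and featureCounts 2.0.1 are named per the submitters' processing notes. The genome build and the use of strand are not given in the sources used here. Libraries were amplified with a SMART-Seq kit, per the labels' protocols, which name no molecular identifiers, so the floor of 3 reads covers counting error only. Columns were matched to samples by library name, and 4 columns that match no sample were not used. Whole reads were recovered from the steps of the deposited CPM values, and 100.0% of values came out within 0.05 reads of a whole number.

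Genes averaging 1 CPM or more, 12129 in all, were tested with limma 3.58.1 (trend, R 4.3.3) on log2(CPM + 1), with 1 mean per group over all 8 libraries, in 4 comparisons and the difference of the editing effect between stages. P-values were adjusted by Benjamini and Hochberg over all genes and called under 0.05. A fold change on the log2(CPM + 1) scale understates the change of low genes. edgeR 4.0.16 and DESeq2 1.42.0 on the recovered reads, other pseudocounts, filters and scalings, replicate blocks, a marker covariate and omission of single libraries were alternatives. Shares of all genes called by edgeR are over 14629 genes and those by DESeq2 over 14013, not the 12129 of limma. Genes named by rule were, for each comparison, up to 10 called lower and 10 called higher with the smallest p-value, and other genes were described after their values were seen. The genes, gene lists and tests were chosen with earlier results of these data known. The fits were tested on simulated counts with the same dispersion for every gene and changes only in the 4-cell edited group. Those settings are simpler than these data, so that test does not measure how reliable the calls are here. Of the 69 genes 1 is counted but not reported by name or plotted here.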

Additional observations from a re-analysis of the deposited data

Results flagged for a closer look

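For 6 of the 69 genes the effect of editing was not the same in embryos of 4 and of 8 cells by limma's test of that difference, each with adjusted p-values under 0.05. CLK3 differed by 1.85 on the log2 scale (limma adjusted p-value 0.0117), being lower in edited embryos at the 4-cell stage (-1.06) and higher at the 8-cell stage (0.79). SF3B4 differed by 1.92 (limma adjusted p-value 0.0206) and SNRPA by 2.18 (limma adjusted p-value 0.0222). Both were lower in edited embryos at the 4-cell stage and were not called at the 8-cell stage. SNRPF differed by -1.42 (limma adjusted p-value 0.0379), HNRNPD by -1.33 (limma adjusted p-value 0.0392) and HNRNPU by -1.37 (limma adjusted p-value 0.0412). These 3 were higher in edited embryos at the 4-cell stage and were not called at the 8-cell stage. edgeR called 0 of the 6 (22 of the 69 genes at an unadjusted p-value under 0.05), and each call was lost on leaving out any edited library. Over the omission of each of the 8 libraries in turn, controls included, the limma adjusted p-values reached 0.0894 for CLK3, 0.0984 for SF3B4, 0.119 for SNRPA, 0.140 for SNRPF, 0.146 for HNRNPD and 0.160 for HNRNPU. With the cumulus and granulosa marker covariate CLK3, SF3B4 and SNRPA were called (limma adjusted p-values 0.0145, 0.0292 and 0.0334). SNRPF, HNRNPD and HNRNPU were not (limma adjusted p-values 0.0533, 0.0638 and 0.0675). The covariate shifted with editing in a similar way at both stages, so it could change these differences little. In that fit they were 1.90 for CLK3, 1.87 for SF3B4 and 2.07 for SNRPA.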

How the results depend on the processing

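Of the 33 genes called at the 4-cell stage, 18 kept their call in each alternative run except the marker covariate, as did 6 of the 15 at the 8-cell stage and none of those in the stage comparisons or the difference between stages. limma, edgeR and DESeq2 all called 28 genes at the 4-cell stage, 10 at the 8-cell stage, 1 between stages in controls and 4 in edited embryos. With the marker covariate 0 were called higher and 0 lower in each of the 4 comparisons, and for the difference between stages 3 were more positive and 0 more negative. There PRPF31 (0.20), PRPF8 (0.63) and SF3A2 (0.45) changed sign at the 4-cell stage, as did CLK1 (0.0045) at the 8-cell stage. The row of SF3A2 is that of AMH, which is among the markers averaged in the covariate, so SF3A2 was adjusted for a mean that holds its own values. At the 8-cell stage 2 genes were called higher with a mean of at least 5 CPM, with only the groups compared in the fit and with DESeq2, and edgeR called 9 lower. Between stages in controls, 0 were higher and 2 lower with only the groups compared, 0 and 1 with edgeR, and 0 and 0 without a filter, and 1 was higher with DESeq2, a pseudocount of 0.5, TMM and median-ratio scaling. Between stages in edited embryos, 11 were lower with only the groups compared and 10 with DESeq2, 1 was higher with edgeR, a pseudocount of 5 and both scalings, and without a filter 1 was higher and 0 lower. For the difference between stages DESeq2 called 6 more positive, edgeR 0 and 0, and the fit without a filter 0 and 0 (20 at an unadjusted p-value under 0.05). Leaving out 1 library gave 9 to 13 higher and 15 to 17 lower at the 4-cell stage, 0 to 0 and 6 to 12 at the 8-cell stage, 0 to 4 and 0 to 10 between stages in controls, 0 to 1 and 0 to 3 in edited embryos, and 0 to 7 more positive and 0 to 7 more negative for the difference. Without the 2 genes that share a row, 19 of 67 were lower at the 4-cell stage. Deviations of same-numbered libraries correlated by 0.11 and -0.09 in the editing comparisons and by -0.30 and 0.02 in the stage comparisons. With 2 libraries per group these values cannot decide whether samples were paired. With the replicate number as a block 13 and 19 were called higher and lower in embryos of 4 cells, 1 and 14 at the 8-cell stage, and 1 was higher between stages in edited embryos. The crossed block, added after the data were seen, gave 2 higher at the 8-cell stage, 7 lower between stages in edited embryos and 6 more positive differences. Depth was lowest for SF3A2, with 9 to 91 reads per library.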

Other observations

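Over the 8 libraries the median range of the 69 genes was somewhat narrower than that of all genes tested. The highest CPM + 1 was a median of 2.47 times the lowest, against 2.71 for all genes tested. Ranges over 4 times were found for 17.4% of the 69 and 25.6% of all genes tested, and under 1.5 times for 2.90% and 3.36%. Genes were not matched for abundance, and no test of this was made. The widest ranges were those of SNRPN (28.6 times), HNRNPAB (15.4), SRSF6 (8.604) and HNRNPH1 (7.89), and the narrowest those of SNRPA1 (1.33) and HNRNPH3 (1.39). The reads of HNRNPD per read of HNRNPK were 0.322 and 0.476 in the controls of 4 cells, 4.52 and 3.84 in edited embryos of 4 cells, 1.59 and 1.33 in the controls of 8 cells and 3.07 and 2.98 in edited embryos of 8 cells. SF3B6 and SF3B5, subunits of the same complex, gave 0.940 and 1.46, 6.96 and 9.65, 2.92 and 1.98 and 4.26 and 5.15 reads of SF3B6 per read of SF3B5 in the same order of groups. The reads of SNRPB2 per read of SNRPA were 1.32 and 1.61 in the controls of 4 cells, 19.4 and 22.6 in edited embryos of 4 cells, 4.68 and 2.58 in the controls of 8 cells and 5.17 and 6.35 in edited embryos of 8 cells. These pairs were picked after their values had been seen.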
